A study of Mus musculus with 17 samples.

Results

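Tumours that lack both Rb1 and Trp53 were compared with tumours that lack Trp53 alone, across 19938 genes. The compared samples were chosen by their source label and number 12 of the 17 in the series. Of these, 9 mouse mammary tumours are labelled as deleted for Rb and p53 (Rb/p53), and 3 for p53 alone. Cre recombinase, an enzyme that cuts out DNA flanked by loxP sites, was driven in 7 Rb/p53 tumours by the promoter of mouse mammary tumour virus, the MMTV-Cre model. In the other 2 an adenovirus delivered it under a cytomegalovirus promoter (Ad-CMVcre). Rb/p53 replicate 1 arose in a nulliparous MMTV-Cre female and replicate 2 in a parous one, replicates 3 to 7 were MMTV-Cre transplants, and replicates 8 and 9 were Ad-Cre transplants. The p53 tumours carry the model label MMTV-Cre only, with no host label, so that genotype and transplantation cannot be told apart for most of the Rb/p53 group. All animals had a mixed strain background. The labels state neither their age nor which exons Cre deleted. The 5 normal mammary samples are titled Rbp53 as well and are printed only for scale.

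The retinoblastoma protein, encoded by Rb1, binds E2F transcription factors and holds back genes for DNA replication until cyclin-dependent kinases (CDKs) inactivate it. The p53 protein, encoded by Trp53, switches on genes of cell cycle arrest and cell death after damage. With p53 lost in both groups, the comparison asks which RNA levels differ with the added deletion of Rb1. The MMTV promoter is active in mammary epithelium and also in some other tissues, such as salivary gland.

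The 3 p53 tumours did not form a tight group. On the array of p53 replicate 2 (tumour C53-25), 66.7% of genes lay outside the range of the 9 Rb/p53 tumours, against 28.8% for p53 replicate 1 and 18.1% for p53 replicate 3. Each Rb/p53 tumour set against the other Rb/p53 tumours gave 14.9% to 31.9%, so replicates 1 and 3 fell within the distance that Rb/p53 tumours had among themselves. The log2 values of p53 replicate 2 were compressed, with an interquartile range of 2.39 where the other tumours had 2.96 to 3.18. With genes split into 4 equal bins by level, its dimmest bin had a median deviation of 0.49 from the Rb/p53 mean and its brightest bin -0.53. Its correlation with Rb/p53 tumours over all genes was 0.888 to 0.915, while pairs of Rb/p53 tumours gave 0.959 to 0.985. An array carries conflicting labels: by its title p53 replicate 3 is an Rb/p53 tumour, but by source name, by description and by tissue it lacks p53 only. Results are therefore given for all 12 tumours, without p53 replicate 2, without p53 replicate 3, and with p53 replicate 1 as the only p53 tumour. In the last case the lone tumour is assumed to vary as the Rb/p53 tumours do.

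**Figure D1:**
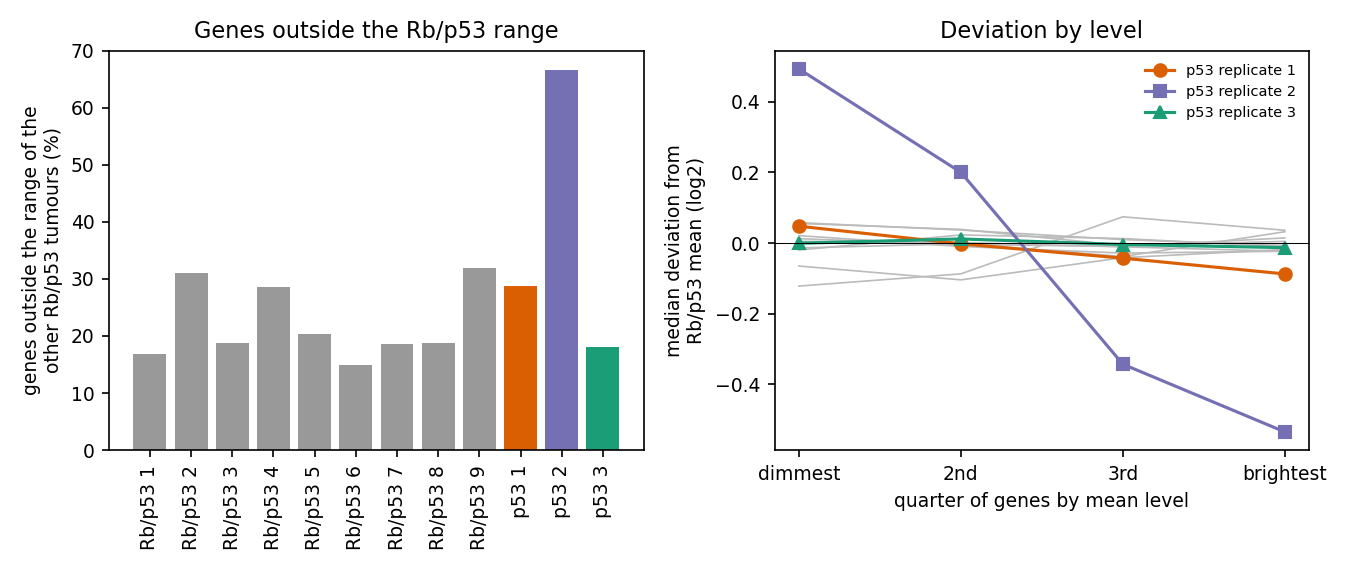
Left, bars give the percentage of genes on each array that lay outside the range of the Rb/p53 tumours (for a Rb/p53 tumour, the other 8). Right, lines give the median log2 deviation of each tumour from the Rb/p53 mean in each of 4 bins of genes by mean level, with p53 tumours in colour and Rb/p53 tumours in grey; p53 replicate 2 reaches 66.7% on the left and runs from 0.49 to -0.53 on the right.

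Across all 12 tumours a single gene passed the test. H2-Ea, which encodes the alpha chain of the class II antigen-presenting molecule I-E, fell by 2.42 on the log2 scale in Rb/p53 tumours (standard error 0.25, limma, adjusted p 0.0082). The 9 Rb/p53 tumours gave log2 values from 6.27 to 6.88, with a median of 6.49. The p53 tumours gave 8.04, 9.68 and 9.16 for replicates 1, 2 and 3, and the normal samples 7.05 to 8.41. All 9 Rb/p53 tumours thus lay below every p53 tumour and every normal sample. The Rb/p53 mean was 6.53 ± 0.19 (SD, n = 9) and the p53 mean 8.96 ± 0.84 (SD, n = 3). The call held when p53 replicate 2 was left out (-2.06, adjusted p 0.0184), when replicate 3 was (-2.33, adjusted p 0.00747) and with p53 replicate 1 alone (-1.51, adjusted p 0.0284). It was lost once the array of conflicting title was counted as an Rb/p53 tumour (-2.07, adjusted p 0.052) and with MMTV-Cre Rb/p53 tumours only (-2.38, adjusted p 0.0518). It was also lost when the 2 non-transplant tumours stood for the Rb/p53 group (-2.14, adjusted p 0.823).

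Other class II genes were not called. In the dendritic cell and MHC class II list, H2-Ea included, 14 of 16 measured members were lower and 2 higher. At an unadjusted p below 0.05 (limma), 4 were lower (25%, beside 10% of all genes) and 0 higher. Ciita of that list read 7.38 to 8.67 in Rb/p53 tumours and 7.89, 9.20 and 9.18 in p53 tumours (-0.94, adjusted p 0.175). H2-Eb1 and H2-Aa were named outside the naming rule. H2-Eb1, which encodes the beta chain of the same I-E molecule, spanned 8.19 to 12.47 in Rb/p53 tumours and read 8.39, 10.57 and 9.23 in the p53 tumours. The groups overlapped, and the difference for H2-Eb1 was 1.04 (adjusted p 0.497), opposite in sign to that of H2-Ea. H2-Aa, the I-A alpha chain, spanned 8.24 to 13.21 in Rb/p53 tumours and read 11.88, 13.62 and 12.90 in p53 tumours (-1.27, adjusted p 0.352). Rb/p53 replicate 7 held the highest H2-Eb1 and H2-Aa values of the group, yet its H2-Ea value was 6.49. As background, H2-Ea is not transcribed in mouse strains of the H-2b haplotype such as C57BL/6. The haplotype of each animal is not given in the labels, and its part in the difference was not tested.

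The single call stood for 0.00502% of the genes tested. No gene was called higher (0), although 2117 genes were higher and 2000 lower at an unadjusted p below 0.05. Over all genes the median difference was -0.03. Counted without a test, 333 genes (1.67%) had all 9 Rb/p53 tumours above all 3 p53 tumours and 294 genes (1.47%) had all below.

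Rb1 itself was the gene that checks the labels. Its log2 value in the 9 Rb/p53 tumours ran from 9.29 to 9.92 with a median of 9.43. In p53 replicates 1, 2 and 3 it read 9.93, 11.00 and 10.27, and in normal tissue 10.93 to 11.50. The Rb/p53 tumours were all below the p53 tumours, but p53 replicate 1 exceeded the highest Rb/p53 tumour by the last printed digit only. The difference was -0.86 (standard error 0.20) and missed the threshold on all 12 tumours (limma, adjusted p 0.112). It was -0.56 without p53 replicate 2 (adjusted p 0.407) and -0.39 against p53 replicate 1 alone (adjusted p 0.607). It passed without p53 replicate 3 (-0.93, adjusted p 0.0469). The array of conflicting title gave a Rb1 value above the whole Rb/p53 range and below the whole normal range. Probes outside the deleted part of the gene could still report its RNA, and the position of the probes against the deletion was not analysed here. Trp53 was not analysed here because no probe set held its symbol alone.

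**Figure D2:**
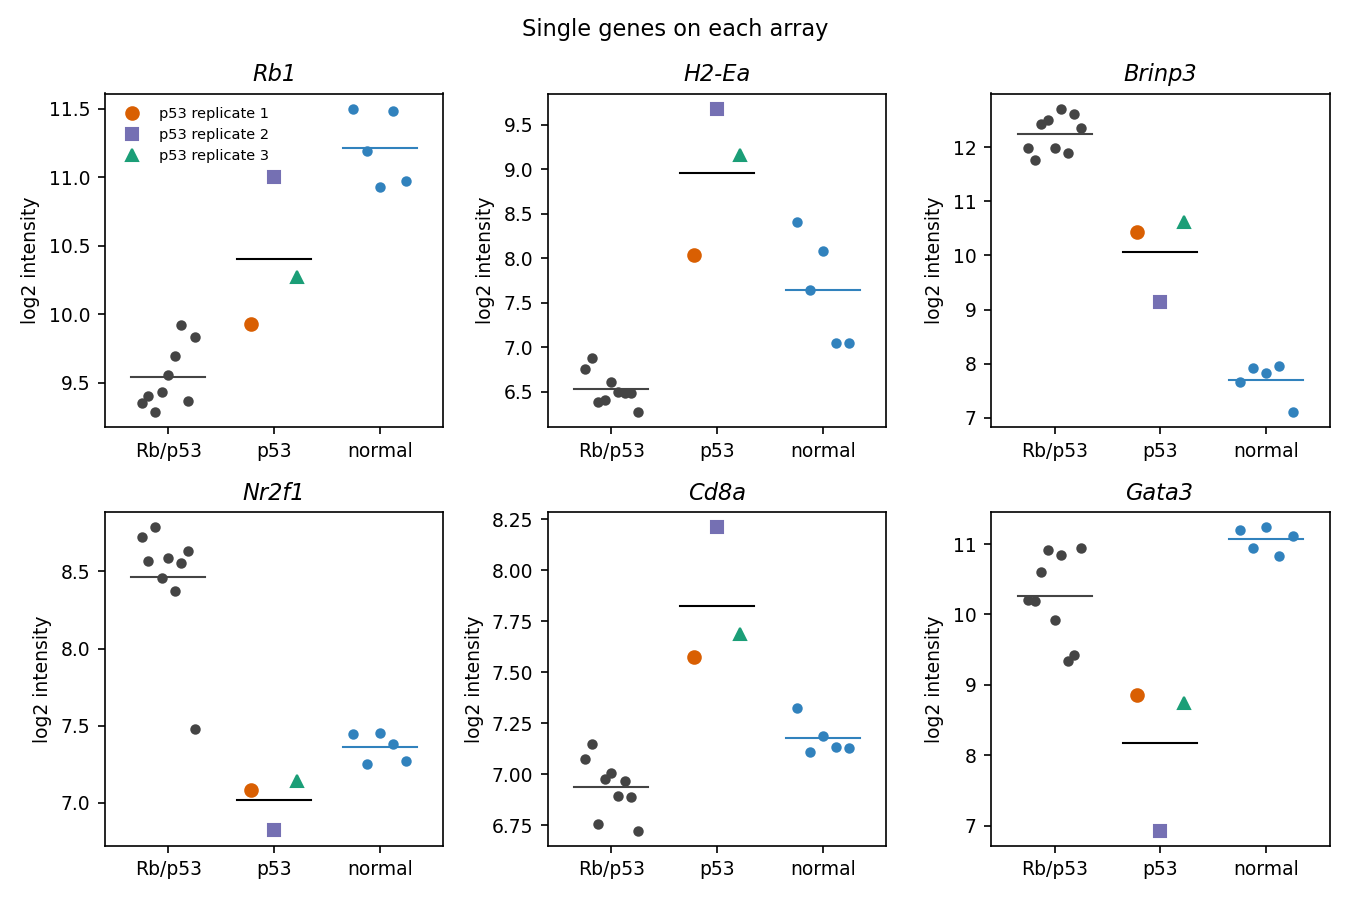
Log2 intensity of 6 genes on every array, with lines at the group means; grey points are the 9 Rb/p53 tumours, blue points the 5 normal samples, and the 3 p53 tumours have a symbol each. For Rb1, H2-Ea and Cd8a every p53 tumour lies above all Rb/p53 tumours, and for Brinp3, Nr2f1 and Gata3 below them.

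The genes next in rank missed the threshold on all 12 tumours and are given as values. Brinp3, named for BMP and retinoic acid induced neural expression, read 11.77 to 12.71 in Rb/p53 tumours with a median of 12.36. It read 10.44, 9.13 and 10.62 in p53 replicates 1 to 3 and 7.11 to 7.96 in normal tissue. All tumours thus exceeded all normal samples, and all Rb/p53 tumours exceeded all p53 tumours. The difference between the tumour groups was 2.19 (standard error 0.29, adjusted p 0.0544). Without p53 replicate 3 Brinp3 rose by 2.47 (adjusted p 0.00732), and it was also called under array weights, with dim genes left out, and under quantile or cyclic loess normalisation. Nr2f1, an orphan nuclear receptor of the COUP-TF family, read 7.48 to 8.79 in Rb/p53 tumours with a median of 8.57. It read 7.08, 6.82 and 7.14 in the p53 tumours and 7.25 to 7.45 in normal tissue, where no sample reached the lowest Rb/p53 tumour. Its difference was 1.45 (adjusted p 0.0935), and the lowest Rb/p53 value belonged to Ad-Cre replicate 9. Without that tumour, and among MMTV-Cre tumours only, Nr2f1 was called higher.

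Of the other genes with the smallest p, those higher in Rb/p53 tumours were Nt5c3, a pyrimidine nucleotidase (0.74), and Gstm1, a glutathione transferase (1.32). Fam122a, Ubxn8, Tmem43, Zfp395, Zfp637, Adi1 and Amn1 followed, with differences from 0.62 for Fam122a to 1.25 for Adi1. Atp6v1d, a subunit of the proton pump of lysosomes, differed by 0.75. Gstm1 read 10.51 to 11.31 in Rb/p53 tumours and 9.64, 9.09 and 10.11 in p53 tumours, while normal tissue read higher than every tumour at 11.65 to 12.23. Those lower included Cd8a, the co-receptor of cytotoxic T cells, with 6.72 to 7.15 in Rb/p53 tumours and 7.58, 8.21 and 7.69 in p53 tumours (-0.89, adjusted p 0.0935). Chd7, a chromatin remodeller, read 9.17 to 9.96 in Rb/p53 tumours and 10.75, 11.20 and 10.12 in p53 tumours (-1.14, adjusted p 0.109). The ribosomal protein genes Rps14 and Rps9 differed by -0.55 and -0.58. The autophagy gene Atg16l1 differed by -0.64, Vps13c by -0.85, Vps4b by -0.45, Pepd by -0.64, Pde11a by -0.54, Sapcd1 by -0.50 and Akirin1 by -0.49. In each of these genes the groups did not overlap, and none was called on all 12 tumours.

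Which p53 tumours entered the comparison set the number of calls. Without p53 replicate 2 the calls were 2 genes (0.01%), H2-Ea and the predicted gene Gm4876, and 1667 genes had an unadjusted p below 0.05. Gm4876, named after its values were seen, read 6.05 to 6.44 in Rb/p53 tumours but 8.51, 6.01 and 7.95 in p53 replicates 1 to 3, and fell by 2.05 (adjusted p 0.000152) without replicate 2. Without p53 replicate 3 the calls numbered 1358 genes (6.81%), of which 847 were higher (4.25%) and 511 lower (2.56%) in Rb/p53 tumours. With p53 replicate 1 as the only p53 tumour 16 genes were called (0.0802%). Of the 1358 genes, 1316 had p53 replicate 1 outside the Rb/p53 range in the called direction and 1357 had p53 replicate 2 outside it. Both tumours were in the fit that chose these genes, so these counts and the sizes against them follow from the choice. The tumour left out, p53 replicate 3, was outside the range in that direction for 282. On that array 1538 of all 19938 genes (7.71%) lay below the Rb/p53 range and 2076 above it, 18.1% in either direction. The count of 282 takes a single direction per gene, so the share for either direction is not its match. The median size of the difference over the 1358 genes was 0.52 against p53 replicate 1, 1.05 against replicate 2 and 0.08 against replicate 3. The sign against p53 replicate 3 alone was the same for 899 of the 1358 genes and not for 459.

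The largest rises without p53 replicate 3 included Csn1s1, which encodes alpha-S1 casein of milk, at 5.73 (adjusted p 0.0302). Its Rb/p53 values spread from 7.96 to 13.14, its p53 values were 4.86, 6.66 and 11.23, and p53 replicate 3 lay within the Rb/p53 range. Osr1, a zinc finger transcription factor, rose by 3.26, Nudt10 by 2.94 and Lurap1l by 2.80. Htra1, a secreted serine protease, rose by 2.75, Tceal1 by 2.71, the fatty acid desaturase gene Scd1 by 2.62 and Clu, which encodes the chaperone clusterin, by 2.54. Among the largest falls were Saa3, an acute-phase serum amyloid (-3.88), Fcna, a ficolin of innate immunity (-2.26), Ifi44l, an interferon-induced gene (-2.16), and Cd3g of the T cell receptor complex (-2.15). F13a1, which encodes a subunit of coagulation factor XIII and is expressed by macrophages, fell by 1.93, Gmfg by 1.89 and the small nuclear RNA gene Rnu12 by 1.82. Ifi44l read 6.22 to 6.60 in Rb/p53 tumours and 8.44 and 8.76 in p53 replicates 1 and 2, but 6.59 in p53 replicate 3. Fcna, F13a1 and Gmfg, by contrast, had all 3 p53 tumours above every Rb/p53 tumour.

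Genes of DNA replication under E2F control were higher on average in Rb/p53 tumours, with a size that depended on p53 replicate 2. All 45 measured members of the list had a positive difference and the median was 0.68, beside -0.03 over all genes. None was called on all 12 tumours (0 of 45, limma), and 25 (55.6%) had an unadjusted p below 0.05, beside 10.6% of all genes in that direction. The mean log2 value of the list ran from 9.82 to 10.44 in Rb/p53 tumours with a median of 10.20, and was 10.05, 8.49 and 9.996 in p53 replicates 1 to 3. Replicates 1 and 3 therefore lay inside the Rb/p53 range and replicate 2 below it. The median difference was 0.13 against replicate 1 alone, 0.25 against replicate 3 alone and 1.68 against replicate 2 alone. Without p53 replicate 2 it was 0.15, with 34 of 45 members positive. Under cyclic loess and quantile normalisation of the 12 arrays the list median was 0.51 and 0.52. The list mean lay above the mean of all genes, which was 8.26 to 8.30 in Rb/p53 tumours. On the compressed array of p53 replicate 2 the brightest bin of genes deviated by -0.53. The part of that compression in the list difference was not tested. Without p53 replicate 3 the median was 0.88 and 10 members (22.2%) were called, all higher, beside 4.25% of all genes called higher in that setting, among them Mcm4 of the replicative helicase (1.47), the licensing factor gene Cdt1 (1.60) and Rfc4 of the clamp loader (2.04). These 3 were named after their values were seen.

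Of the members with the largest test statistics, Chaf1b, a subunit of chromatin assembly factor 1, read 9.77 to 10.66 in Rb/p53 tumours with a median of 10.43. Its p53 values were 9.52, 8.55 and 9.72, all below the Rb/p53 range, and the difference was 1.07 (adjusted p 0.109). Dut, which encodes the enzyme that removes dUTP, read 10.27 to 11.08 in Rb/p53 tumours with a median of 10.61 and 9.97, 8.32 and 10.10 in p53 tumours (1.18, adjusted p 0.137). Dut likewise had no overlap between the groups. In all, 3 of the 45 members did not overlap, beside 1.67% of all genes.

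E2F factors recognise a short GC-rich motif close to gene starts, and the promoters of 3 list members are shown because they carry it. The letters searched were TTTGGCGC, TTTCCCGC, TTTGCCGC and TTTCGCGC on both strands, in RefSeq windows of 300 bases that end shortly after each gene start. A match was found for 16 of 38 list members with a promoter (42.1%), beside 704 of 27025 genes (2.6%). Of mitosis genes 1 of 22 had one (4.55%), and of mitochondrial translation genes 6 of 91 (6.59%). The 3 members are those with a match and the largest test statistics on all 12 tumours. Sequences are RefSeq on GRCm38.p6, printed 5′ to 3′ along the gene with each match in capitals and without overlap between matches. They are Cdt1 (chr8:122567765-122568064, plus strand), Gins3 (chr8:95633309-95633608, plus strand) and Rfc3 (chr5:151651159-151651458, minus strand).
Cdt1: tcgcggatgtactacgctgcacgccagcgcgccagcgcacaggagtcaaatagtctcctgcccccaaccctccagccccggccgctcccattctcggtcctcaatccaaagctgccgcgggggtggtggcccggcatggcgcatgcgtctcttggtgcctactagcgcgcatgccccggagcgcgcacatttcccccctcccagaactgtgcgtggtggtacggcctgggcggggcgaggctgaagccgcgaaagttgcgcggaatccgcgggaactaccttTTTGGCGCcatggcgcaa
Gins3: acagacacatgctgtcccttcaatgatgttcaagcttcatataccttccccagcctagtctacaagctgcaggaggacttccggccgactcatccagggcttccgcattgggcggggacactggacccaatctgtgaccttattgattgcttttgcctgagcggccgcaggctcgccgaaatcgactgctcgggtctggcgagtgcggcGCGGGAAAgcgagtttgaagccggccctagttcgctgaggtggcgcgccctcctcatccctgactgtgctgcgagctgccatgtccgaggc
Rfc3: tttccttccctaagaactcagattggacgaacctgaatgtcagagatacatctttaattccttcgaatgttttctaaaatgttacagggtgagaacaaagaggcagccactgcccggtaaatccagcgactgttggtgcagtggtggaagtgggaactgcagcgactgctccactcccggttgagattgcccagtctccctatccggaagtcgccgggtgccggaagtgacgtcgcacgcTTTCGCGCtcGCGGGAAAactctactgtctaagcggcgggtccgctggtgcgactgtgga

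Cdt1 showed how far these genes varied among the p53 tumours. It read 10.39 to 11.03 in Rb/p53 tumours with a median of 10.47, and 9.40, 8.64 and 10.57 in p53 replicates 1 to 3, so replicate 3 sat inside the Rb/p53 range. The difference was 1.09 (adjusted p 0.144), 1.22 against replicate 1 alone and 0.06 against replicate 3 alone. Gins3, a subunit of the GINS complex of the replicative helicase, read 8.99 to 9.84 in Rb/p53 tumours and 8.51, 7.82 and 9.10 in p53 tumours (0.87, adjusted p 0.153). Rfc3, a clamp loader subunit, read 10.19 to 11.64 in Rb/p53 tumours and 10.69, 8.15 and 10.47 in p53 tumours (1.23, adjusted p 0.19). For Cdt1 and Gins3 replicates 1 and 2 were below the Rb/p53 range, and for Rfc3 replicate 2 only.

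**Figure D3:**
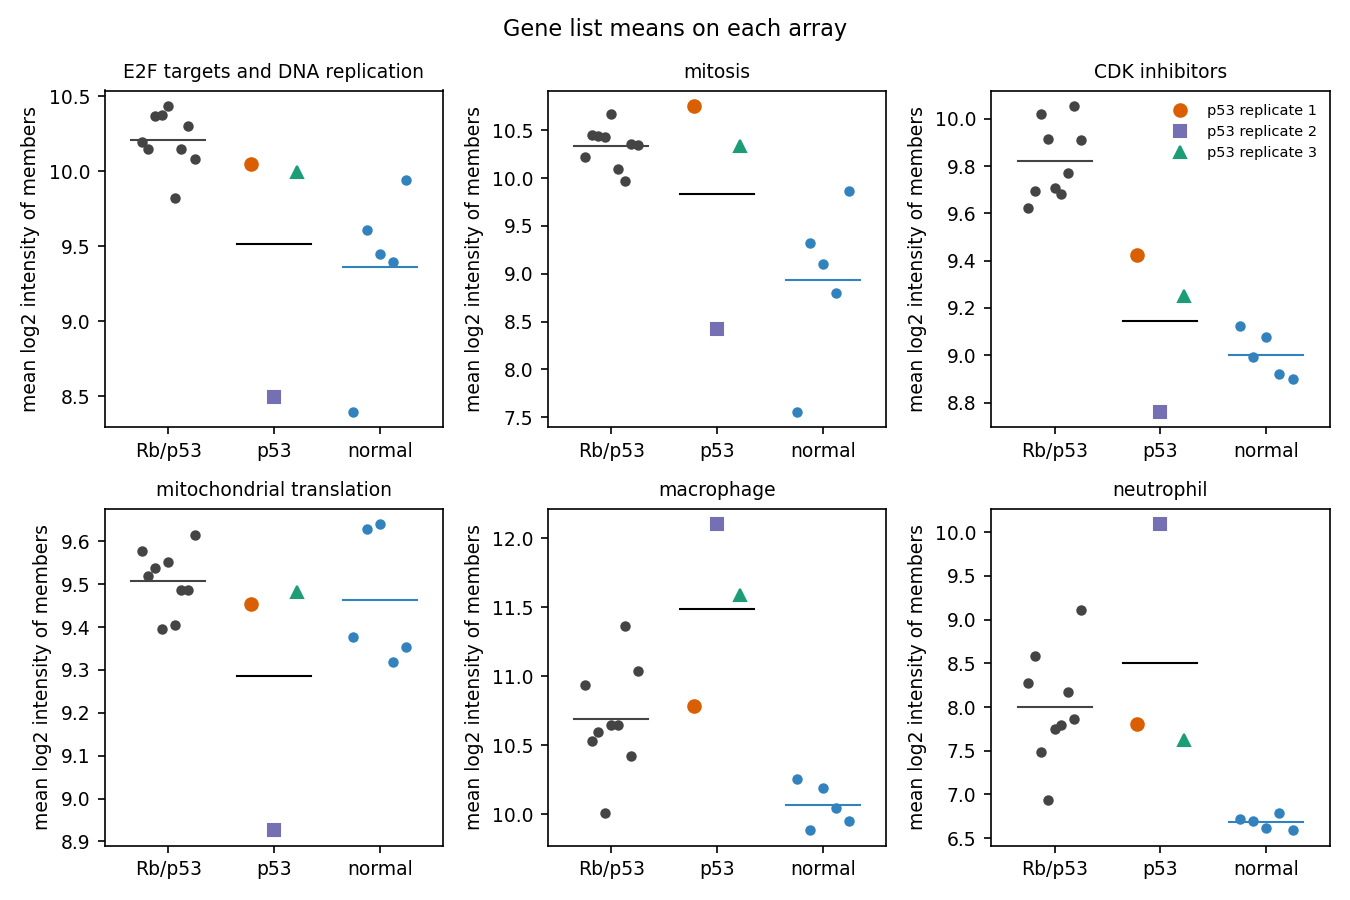
Mean log2 intensity of the measured members of 6 gene lists on every array, with lines at the group means; grey points are Rb/p53 tumours, blue points normal samples, and each p53 tumour has its own symbol. In the E2F, mitosis and mitochondrial translation lists p53 replicate 2 lies below all Rb/p53 tumours while p53 replicates 1 and 3 do not, and in the CDK inhibitor list all 3 p53 tumours lie below.

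Mitosis genes, which build the spindle and drive chromosome separation, did not share one direction across the p53 tumours. All 27 measured members were higher in Rb/p53 tumours on the average of 3 p53 tumours (median 0.58), and 0 were called. An unadjusted p below 0.05 was found for 4 (14.8%), near the 10.6% of all genes in that direction. Without p53 replicate 2 the median was -0.25 and only 6 of 27 were higher. The list mean was 9.97 to 10.67 in Rb/p53 tumours and 10.76, 8.42 and 10.34 in p53 replicates 1 to 3. In p53 replicate 1, 16 of the 27 genes exceeded every Rb/p53 tumour, as did 14.6% of all genes. In p53 replicate 2 all 27 lay below every Rb/p53 tumour, as did 29.5% of all genes. Mki67, the proliferation antigen, read 10.73 to 11.27 in Rb/p53 tumours and 11.68, 10.13 and 10.87 in p53 tumours (0.09, adjusted p 0.823). Mad2l1 and Aurkb, of the spindle checkpoint and the chromosomal passenger complex, differed by 0.72 and 0.69 (adjusted p 0.206 and 0.217).

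In the list of pocket proteins and E2F factors, Rb1 included, 11 of 13 measured genes were higher in Rb/p53 tumours (median 0.40) and 0 were called. An unadjusted p below 0.05 was found for 4 higher genes (30.8%, beside 10.6% of all genes) and 1 lower gene, Rb1. With p53 replicate 2 left out the list median was 0.05. E2f1 read 9.28 to 10.36 in Rb/p53 tumours and 9.76, 8.72 and 9.55 in p53 tumours (0.32, adjusted p 0.405). Rbl1, which encodes the related pocket protein p107, differed by 0.23 (adjusted p 0.621), and Tfdp1, the dimer partner of E2F factors, by 0.78 (adjusted p 0.174). Without p53 replicate 3, 1 member was called higher, E2f6 (1.14, adjusted p 0.0322), a repressive E2F named after its values were seen, and 1 lower, Rb1.

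CDK inhibitors, which restrain the kinases that act on the retinoblastoma protein, had a list mean that separated the groups by a gap of 0.20 on the log2 scale. Of the 40 lists, immediate early genes and ERBB receptors and ligands also did not overlap, with gaps of only 0.0008 and 0.0042. All 6 measured members were higher in Rb/p53 tumours and the median difference was 0.69. It stayed positive against p53 replicates 1, 2 and 3 alone, at 0.37, 1.29 and 0.55. Without p53 replicate 2 it was 0.39, with 5 of 6 members higher. The list mean was 9.62 to 10.06 in Rb/p53 tumours, 9.42, 8.76 and 9.25 in p53 tumours and 8.90 to 9.13 in normal tissue. On this mean no p53 tumour reached the lowest Rb/p53 tumour, yet 0 of 6 members were called. The groups overlapped for each single member, where 1.67% of all genes were higher without overlap. An unadjusted p below 0.05 was found for 2 members (33.3%, beside 10.6% of all genes higher). Cdkn2c, which encodes p18INK4c, read 9.72 to 11.46 in Rb/p53 tumours with a median of 10.49 and 9.86, 8.76 and 8.77 in p53 tumours (1.47, adjusted p 0.118). Cdkn1c, which encodes p57KIP2, read 7.92 to 9.43 and 8.08, 7.999 and 7.83 (0.77, adjusted p 0.215). Cdkn2a, which encodes p16INK4a and p19ARF, read 8.30 to 11.05 in Rb/p53 tumours with a median of 10.52, 10.28, 8.33 and 10.59 in p53 tumours and 7.43 to 7.75 in normal tissue. For Cdkn2a the tumour groups overlapped (0.61, adjusted p 0.501) and every tumour exceeded every normal sample. Cdkn1a was not analysed here, since no probe set held its symbol alone.

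G1 cyclins and their kinases had a median difference of 0.49 over 9 measured genes, and of -0.03 without p53 replicate 2. Ccne1, the cyclin E1 gene and an E2F target, read 9.33 to 10.30 in Rb/p53 tumours and 9.31, 8.54 and 10.01 in p53 tumours (0.61, adjusted p 0.219), and it rose by 0.97 without p53 replicate 3 (adjusted p 0.044). Ccnd3, the cyclin D3 gene, rose by 0.82 in that setting (adjusted p 0.0188) and differed by 0.53 on all 12 tumours. Cdk2, the partner of cyclin E, differed by 0.66 (adjusted p 0.164). Homologous recombination and Fanconi genes had a median of 0.27 over 23 members, and 0.06 without p53 replicate 2. Targets of p53 had a median of 0.08 over 27 members, close to all genes, with 17 higher and 10 lower and 0 called. Tnfrsf10b, a death receptor gene, differed by 1.62 (adjusted p 0.124), Pmaip1, which encodes NOXA, by -0.58, and Mdm2 by 0.15 (adjusted p 0.536).

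**Figure D4:**
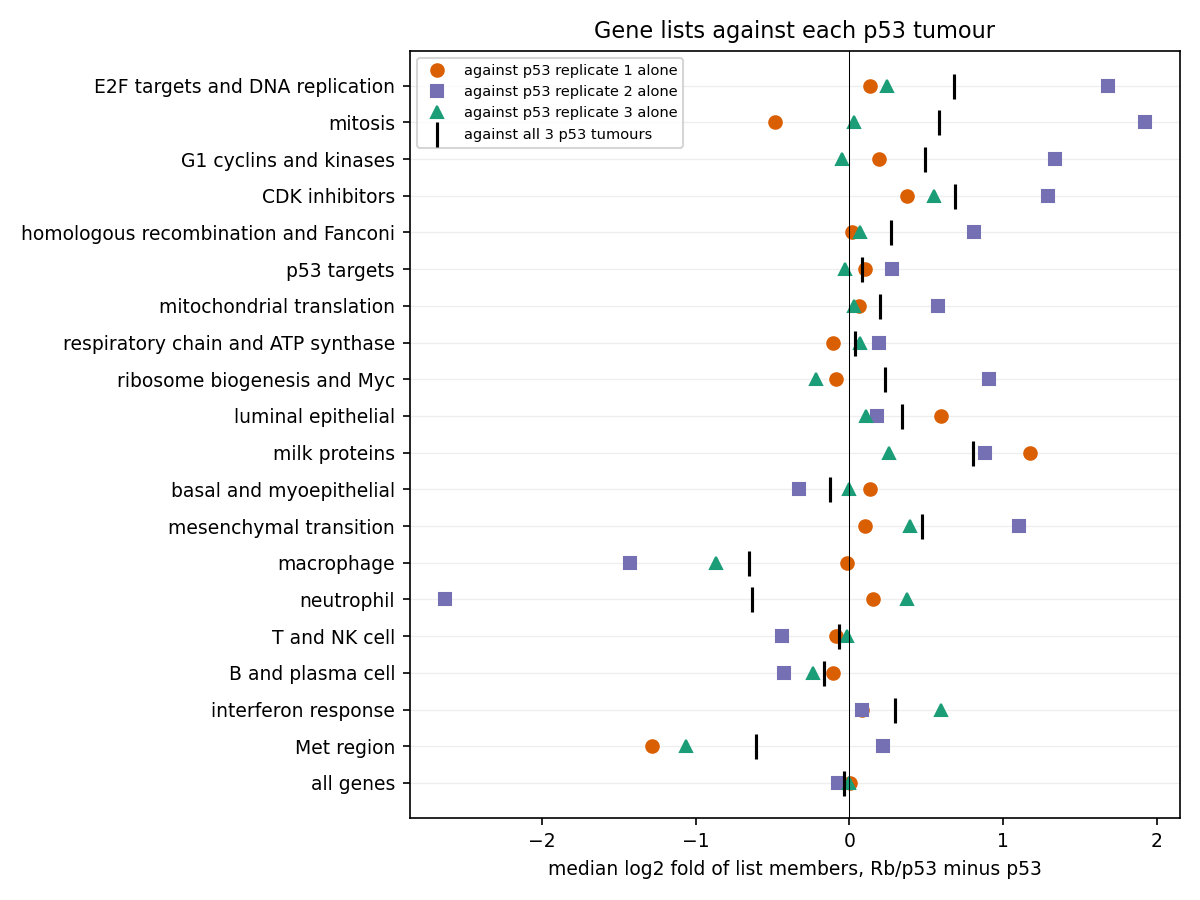
Median log2 fold (Rb/p53 minus p53) of the measured members of 19 gene lists and of all genes, against each p53 tumour alone (coloured symbols) and against all 3 (black bars). The symbols lie on both sides of 0 for several lists, among them mitosis, ribosome biogenesis, neutrophil and Met region genes. For CDK inhibitors, milk proteins and mesenchymal transition all 3 lie above it. The same holds for the E2F, homologous recombination, mitochondrial translation, luminal and interferon lists, some of them by little.

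Genes of mitochondrial translation, the ribosomal proteins, factors and tRNA synthetases that make respiratory chain subunits, had a median difference of 0.20 over 102 measured members. There were 78 higher and 24 lower, and 0 were called. At an unadjusted p below 0.05, 31 were higher (30.4%, beside 10.6% of all genes) and 4 lower (3.92%, beside 10%). The list mean was 9.39 to 9.62 in Rb/p53 tumours and 9.45, 8.93 and 9.48 in p53 tumours, so again only p53 replicate 2 fell outside. Without it the median was 0.03 with 53 of 102 higher. Without p53 replicate 3, 13 members were called higher (12.7%, beside 4.25% of all genes) and 1 lower (0.98%, beside 2.56%). Mrps6, of the small mitochondrial ribosomal subunit, read 11.00 to 12.16 in Rb/p53 tumours and 10.12, 8.47 and 11.17 in p53 tumours (1.77, adjusted p 0.118; 2.39 and adjusted p 0.0143 without p53 replicate 3). Mrpl57 differed by 0.49 with no overlap (adjusted p 0.109), while Tufm, an elongation factor of mitochondria, differed by 0.33 (adjusted p 0.262). Under cyclic loess and quantile normalisation of the 12 arrays the list median was 0.08 and 0.07.

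Respiratory chain and ATP synthase genes showed no common direction, with 39 of 72 higher, 33 lower and a median of 0.03. Without p53 replicate 3, 6 were called higher (8.33%, beside 4.25% of all genes) and 7 lower (9.72%, beside 2.56%). Ndufv1 of complex I read 10.85 to 11.32 in Rb/p53 tumours and 10.35, 10.15 and 10.80 in p53 tumours (0.62, adjusted p 0.114). Sdhb of complex II ran the other way, with 10.10 to 10.72 and 11.31, 11.02 and 10.77 (-0.60, adjusted p 0.114). Both were without overlap between the groups. Ribosome biogenesis genes and Myc had a median of 0.23 over 28 members, and of -0.15 without p53 replicate 2. Myc read 10.92 to 12.68 in Rb/p53 tumours and 11.74, 8.83 and 11.75 in p53 tumours (0.86, adjusted p 0.33).

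Mean levels of the luminal and basal lists were lower in every tumour than in every normal sample. The luminal list mean was 7.75 to 8.997 in Rb/p53 tumours, 7.68 to 8.20 in p53 tumours and 9.86 to 9.997 in normal tissue. The basal and myoepithelial list mean was 7.85 to 8.40, 8.18 to 8.43 and 9.30 to 9.56 in the same order. Single epithelial genes varied widely within each genotype, and not all were below normal tissue. Krt8, a luminal keratin, read 10.95 to 13.53 in Rb/p53 tumours, 13.27, 10.35 and 13.13 in p53 tumours and 12.30 to 12.57 in normal tissue. Epcam, an epithelial adhesion molecule, read 7.06 to 11.06 in Rb/p53 tumours, 6.47, 6.96 and 9.81 in p53 tumours and 11.89 to 12.18 in normal tissue, above every tumour (difference between tumours 1.64, adjusted p 0.317). Fewer cells of a type and less RNA per cell cannot be told apart in such bulk samples. The luminal list had a median difference of 0.34 over 36 members, 29 of them higher, with 0 called. The median was 0.60, 0.18 and 0.11 against p53 replicates 1, 2 and 3 alone, and 14 of the 36 genes in p53 replicate 1 were below every Rb/p53 tumour, as were 14.2% of all genes there.

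Gata3, a transcription factor of luminal cells, was the luminal gene with the largest test statistic. It read 9.35 to 10.95 in Rb/p53 tumours with a median of 10.20, 8.86, 6.93 and 8.75 in p53 tumours, and 10.83 to 11.24 in normal tissue. No p53 tumour reached the lowest Rb/p53 tumour. The difference was 2.09 (adjusted p 0.109), 1.46 with p53 replicate 2 left out (adjusted p 0.382) and 2.37 with p53 replicate 3 left out (adjusted p 0.029). Erbb2, the HER2 receptor gene, read 8.51 to 9.79 in Rb/p53 tumours and 8.48, 7.59 and 8.09 in p53 tumours (0.96, adjusted p 0.123). Milk protein genes had a median of 0.80 over 13 members, 11 of them higher, and of 0.26 against p53 replicate 3 alone. Their list mean spanned 7.87 to 11.28 in Rb/p53 tumours, and 7.28, 8.23 and 9.21 in p53 tumours. Mfge8, a milk fat globule protein, read 11.97 to 12.60 and 11.57, 9.92 and 11.50 (1.18, adjusted p 0.114).

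Basal genes gave small or mixed differences, while mesenchymal transition genes had a positive median whose size depended on the tumours used. The basal and myoepithelial list had a median of -0.13 over 24 members. Krt5, a basal keratin, read 6.84 to 8.29 in Rb/p53 tumours and 6.92, 9.53 and 8.02 in p53 tumours (-0.85, adjusted p 0.282), and Krt14 differed by 0.06. Lgals7, an epithelial galectin, read 7.82 to 8.76 and 11.65, 8.39 and 9.16 (-1.52, adjusted p 0.17), and it fell by 3.44 against p53 replicate 1 alone (adjusted p 0.00293). Mesenchymal transition genes had a median of 0.47 over 24 members, 16 higher and 8 lower, with 0 called. At an unadjusted p below 0.05 (limma), 5 were higher (20.8%, beside 10.6% of all genes) and 1 lower (4.17%, beside 10%). Without p53 replicate 3, 3 were called higher (12.5%, beside 4.25% of all genes) and 0 lower. The median of this list was 0.17 without p53 replicate 2 and 0.03 when the 2 non-transplant tumours stood for the Rb/p53 group. Snai1, a repressor of epithelial genes, read 11.00 to 11.69 in Rb/p53 tumours with a median of 11.34, 10.54, 9.11 and 10.43 in p53 tumours and 9.26 to 9.70 in normal tissue. Its tumour groups did not overlap (1.32, adjusted p 0.109; 1.52 and adjusted p 0.0202 without p53 replicate 3). Twist1 read 9.83 to 10.84 and 9.80, 7.81 and 9.41 (1.23, adjusted p 0.137). Vim, which encodes the filament protein vimentin, differed by 0.07.

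Genes around Met were lower in Rb/p53 tumours than in p53 replicates 1 and 3, and not in replicate 2. The list of 12 neighbours had a median of -0.61, with -1.28, 0.22 and -1.06 against replicates 1, 2 and 3 alone. Met, the receptor of hepatocyte growth factor, read 13.39 and 13.26 in p53 replicates 1 and 3 and 6.82 in replicate 2. Among Rb/p53 tumours it reached 13.36 and 13.60 in replicates 2 and 9, and 10.65 to 11.92 in the other 7. High values thus occurred in both genotypes (0.50, adjusted p 0.804). St7 read 11.43, 9.55 and 11.11 in p53 tumours and 8.45 to 11.34 in Rb/p53 tumours (-1.67, adjusted p 0.175). Tes, a focal adhesion gene named after its values were seen, read 13.55, 9.45 and 13.16 in p53 tumours and 9.21 to 11.00 in Rb/p53 tumours (-1.86, adjusted p 0.197; -3.17 and adjusted p 0.0859 without p53 replicate 2). Yap1, the Hippo pathway co-activator, reached 13.51, 13.46 and 12.15 in Rb/p53 replicates 1, 7 and 8 and stayed at 10.11 to 10.74 in the other 6, beside 10.62, 8.08 and 10.43 in p53 tumours. The Yap1 groups overlapped (1.51, adjusted p 0.3).

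Macrophage genes were lower in Rb/p53 tumours against p53 replicates 2 and 3. Of 20 measured members 19 were lower, the median was -0.65 and 0 were called. At an unadjusted p below 0.05, 11 were lower (55%, beside 10% of all genes). The list mean was 10.01 to 11.36 in Rb/p53 tumours, and 10.79, 12.10 and 11.59 in p53 replicates 1 to 3, so replicates 2 and 3 lay above the range and replicate 1 within it. The median was -0.02, -1.43 and -0.87 against the 3 tumours alone. Mrc1, the mannose receptor gene, read 10.21 to 11.76 in Rb/p53 tumours with a median of 10.99 and 11.89, 13.19 and 12.17 in p53 tumours (-1.43, adjusted p 0.109). Every p53 tumour exceeded every Rb/p53 tumour for Mrc1. Mertk, a receptor for the uptake of dying cells, read 9.14 to 9.82 and 9.76, 12.01 and 10.49 (-1.28, adjusted p 0.134). Neutrophil genes had a median of -0.64 over 20 members, but of 0.18 without p53 replicate 2, whose list mean of 10.09 exceeded the Rb/p53 range of 6.93 to 9.11. Against p53 replicate 2 alone the neutrophil median was -2.63, and 13 of the 20 genes were above every Rb/p53 tumour there, as were 37.2% of all genes on that array. Macrophage and neutrophil RNA were thus both highest in the tumour whose array stood apart, and the part of immune cells in its other differences was not tested.

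T and NK cell genes had a median of -0.07 over 22 members, with 8 higher and 14 lower and 0 called. At an unadjusted p below 0.05, 8 were lower (36.4%, beside 10% of all genes) and 2 higher (9.09%, beside 10.6%). Without overlap between the groups, 0 were higher and 4 lower, Cd8a, Cd8b1, Cd2 and Cd5, beside 1.47% of all genes lower. The fit that left out p53 replicate 3 called 4 lower (18.2%, beside 2.56% of all genes), Cd8a, Cd8b1, Cd2 and Cd3g. It called 0 higher. Cd2 and Cd5 are named after their values were seen. Cd8b1, the other chain of the cytotoxic co-receptor, read 6.63 to 6.93 in Rb/p53 tumours and 7.33, 7.85 and 7.04 in p53 tumours (-0.67, adjusted p 0.109; -0.85 and adjusted p 0.0129 without p53 replicate 3). Normal tissue read 6.89 to 7.13. In Rb/p53 tumours Cd8b1 lay below the median probe set of each array, which was 7.74 to 7.81. B and plasma cell genes had a median of -0.17, with 13 of 15 lower. Ms4a1, which encodes CD20, read 5.26 to 5.99 in Rb/p53 tumours and 6.12, 6.002 and 6.36 in p53 tumours (-0.61, adjusted p 0.109). On every tumour array Ms4a1 lay below the 25th percentile of probe sets, which was 6.37 to 6.80, so its values are near the floor. On the compressed array of p53 replicate 2 the dimmest bin of genes deviated by 0.49. The MHC class I and processing list had 10 of 11 lower and a median of -0.41, while Tapbp, which encodes tapasin, ran against it at 0.76 without overlap (adjusted p 0.135). Interferon response genes had a median of 0.30, with 16 of 22 higher, and of 0.60 against p53 replicate 3 alone, in which 12 of the 22 genes lay below every Rb/p53 tumour, as did 7.71% of all genes. Oasl2, an antiviral oligoadenylate synthetase-like gene, read 10.29 to 11.93 and 10.25, 10.17 and 10.09 (0.83, adjusted p 0.205).

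Several single genes of other lists also separated the groups without a call on all 12 tumours. The immediate early genes Fos and Egr1 read 8.001 to 8.87 and 10.14 to 11.11 in Rb/p53 tumours. In p53 tumours Fos read 7.66, 7.69 and 7.798, and Egr1 9.20, 9.10 and 9.95. Both lay wholly above the p53 tumours (Fos 0.86, adjusted p 0.109; Egr1 1.04, adjusted p 0.109), and both rose without p53 replicate 3, by 0.90 and 1.30. The immediate early list had a median of 0.27, with 11 of 16 higher. Vgll4, a partner of TEAD factors that opposes Yap1, read 11.00 to 11.63 in Rb/p53 tumours and 10.59, 10.75 and 10.67 in p53 tumours (0.61, adjusted p 0.109). Notch1 ran the other way, with 9.42 to 10.24 in Rb/p53 tumours and 10.44, 10.41 and 10.33 in p53 tumours (-0.64, adjusted p 0.154). The neuroendocrine list, relevant because loss of Rb1 and Trp53 marks neuroendocrine tumours of other organs, had 12 of 15 lower and a median of -0.15. That median was -0.08 without p53 replicate 2 and -0.01 against p53 replicate 1 alone. Neurog3, a lineage factor of endocrine cells, read 6.20 to 6.50 and 6.65, 6.93 and 6.55 (-0.32, adjusted p 0.164). These values lay near the 25th percentile of probe sets, 6.37 to 6.80 over the tumour arrays, and thus near the floor.

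The remaining lists had median differences between -0.18 and 0.46 on all 12 tumours with 0 members called. They covered glycolysis and hypoxia (0.19), squamous keratinocyte (-0.07), fibroblast and matrix (0.01) and adipocyte genes (-0.03). Medians were -0.18 for mast cell, 0.28 for endothelial, -0.14 for pericyte, -0.05 for skeletal muscle and -0.10 for nerve and Schwann cell genes. They were -0.03 for the Yap1 and Birc2 region, 0.46 for Hippo and TEAD genes, 0.24 for ERBB receptors and ligands, -0.08 for the Notch pathway, 0.01 for the Wnt pathway and -0.04 for the Bcl2 family. Several of these medians rested on p53 replicate 2. Without it they were -0.04 for endothelial genes, with 5 of 16 higher in place of 15, -0.10 for glycolysis and hypoxia, -0.26 for fibroblast and matrix and 0.15 for Hippo and TEAD genes. The erythrocyte list had 4 measured members and a median of -0.0029. The dendritic cell and MHC class II list, which holds H2-Ea as its single call, had a median of -0.34. Adipocyte list means were 7.58 to 8.68 in Rb/p53 and 7.56 to 8.46 in p53 tumours, against 12.02 to 12.59 in normal tissue, so both tumour groups held far less fat cell RNA than normal gland.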

How the data were processed

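Total RNA of 17 mouse mammary samples was hybridised, each sample to 1 Affymetrix Mouse Gene 1.0 ST array, per the labels. The authors deposited log2 values for 35556 probe sets, made by RMA in Partek 5.6 per the submitters' processing notes; the genome build is not given in the sources used here. The number of arrays limits the precision. Probe sets with exactly 1 symbol stood for genes (21789 with 1 symbol, 1621 with several, 12146 with none here); of several probe sets with a symbol the one with the highest mean over 17 arrays was kept, which left 19938 genes.

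The 9 Rb/p53 and 3 p53 tumours were compared with limma 3.58.1 (lmFit and eBayes, two-sided) in R 4.3.3, with Benjamini-Hochberg adjustment over all genes, a threshold of 0.05 and folds as log2 differences. The limma step was tested on simulated data in which both groups had the spread of the Rb/p53 tumours. That setting held no compressed array like that of p53 replicate 2. It therefore cannot show whether the p-values hold for these p53 tumours. p-values measure the spread between tumours, which the fit treats as independent. Whether transplanted tumours shared a donor was not examined. The conflicting p53 replicate 3 was placed by source name, description and tissue.

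Genes were named by rule: Rb1, Trp53 and a set of cell cycle, keratin and region genes; the 12 largest rises and falls called; the 8 largest without p53 replicate 2 or 3; the 12 smallest p per direction; and 2 members of each of 40 lists with the largest test statistic. Predicted genes, most small RNAs, olfactory and vomeronasal receptors and immune receptor segments were skipped. The small nuclear RNA gene Rnu12 was not covered by this rule and was named. The compared samples and lists were chosen with earlier results of these data known. Lists are described by counts and medians, without a test. Promoters are RefSeq windows of 300 bases. Alternatives were other sets of arrays, an intensity trend, array weights, a filter at the 25th percentile of level, quantile and cyclic loess normalisation, other probe set rules and a log2 fold of at least 1.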

Additional observations from a re-analysis of the deposited data

Results flagged for a closer look

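Within the 9 Rb/p53 tumours, a gap between the most extreme tumour and its neighbour that exceeded Dixon's critical share of the whole range marked 13 of 175 values examined (135 genes and 40 list means); chance marks about 1 in 20. Such a tumour was lowest for Cdkn2a (8.30 in replicate 4, others 10.03 to 11.05), Nr2f1 (7.48 in replicate 9, others 8.37 to 8.79) and Mmp8 (5.92 in replicate 4, others 7.04 to 8.13). It was highest for Hdc (9.72 in replicate 9, others 7.75 to 8.72), Alas2 (10.26 in replicate 2, others 7.78 to 8.50), Nefm (6.27 in replicate 6) and Egr1 (11.11 in replicate 4). It was also highest for 2 genes of the Met region, Tfec (10.95 in replicate 9) and St7 (11.34 in replicate 2). The mean of the homologous recombination and Fanconi list was lowest in replicate 6 (8.32). List means were highest for mast cell genes in replicate 9 (8.68), erythrocyte genes in replicate 2 (8.44) and nerve and Schwann cell genes in replicate 6 (8.55).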

How the results depend on the processing

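The number of genes called between Rb/p53 and p53 tumours was 1 with all 12 tumours and ranged from 1 to 1358 when each tumour was left out in turn. The count was 2 without Rb/p53 replicate 9, 19 without p53 replicate 1, 2 without p53 replicate 2 and 1358 without p53 replicate 3. With a single p53 tumour it was 16 for replicate 1 and, chosen after seeing the data, 8716 for replicate 2 and 19 for replicate 3. It was 2044 once the conflicting array was counted as an Rb/p53 tumour, 356 with all 17 arrays in the fit, and 0 when only the 2 non-transplant Rb/p53 tumours were used (616 at an unadjusted p below 0.05). Array weights gave 3 calls, with a weight of 0.108 for p53 replicate 2, and all probe sets gave 5. Leaving out dim genes, quantile normalisation and cyclic loess gave 2 each. H2-Ea was called in every setting run on genes except with replicate 3 moved, with MMTV-Cre tumours only and with tumours not labelled as transplants. Rb1 was called without p53 replicate 3 (-0.93), against p53 replicate 2 alone (-1.46) and with all 17 arrays (-0.86), with leave-one-out values from -1.10 to -0.56. For some named genes the sign turned with the choice of p53 tumours. Saa3 was -3.88 without p53 replicate 3 and 0.42 against it alone. Gm4876 was -2.05 without p53 replicate 2 and 0.18 against it alone. Over 40 list medians and their alternatives, 874 values moved by less than the SD between Rb/p53 tumours and 126 by more. The 874 include the intensity trend and the fit of all 17 arrays, which leave folds unchanged, so that medians could not move. Without p53 replicate 2, 15 of the 40 medians moved by more than that SD. The cause of these changes was not tested. No paired analysis was possible because the labels give no replicate numbers.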
